A study of Mus musculus with 5 samples.

Results

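In all, 10 genes that encode coat, fusion and fat storage proteins of lipid droplets were followed in the livers of Fra-1hep mice on a high-fat diet: the CIDE genes Cidea, Cideb and Cidec, the perilipin genes Plin2, Plin3, Plin4 and Plin5, the fat storage genes Fitm1 and Fitm2, and G0s2. They were chosen as families, with earlier results of these data known, and were found in the array annotation through the accession of each probe. All 10 genes were found, with 12 of the 55681 distinct probes, and all 12 probes and 10 genes passed the filter on dim spots, which left 21521 features (named genes, or accessions without a name) to test. Fra-1hep mice (C57BL/6J) make extra Fra-1 in hepatocytes. Fra-1 is one of the FOS proteins that pair with JUN proteins as AP-1 on DNA. Which promoter drives the transgene is not known here. Each of 4 Fra-1hep mice was labelled with Cy5 and hybridised on 1 array against a Cy3-labelled pool of liver RNA from 5 control mice (C57BL/6J wt). The fifth array turned the dyes round: pooled Fra-1hep RNA carried Cy3 and the control pool carried Cy5. Which mice made up the Fra-1hep pool is not known here, so it may add no animal. Fra-1hep and control mice alike were fed from 4 weeks of age a diet with 45% of its energy as fat, and were 26 to 28 weeks of age at sampling.

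The family was lower in Fra-1hep livers, and very unevenly so. Cidea fell 44.7-fold, Plin4 13.9-fold and Plin2 2.53-fold, while Fitm1 (1.92-fold), Cidec (1.58-fold), Plin5 (1.47-fold), Cideb (1.19-fold) and Plin3 (1.18-fold) fell less. G0s2 and Fitm2 did not pass the test, and none of the 10 changes lay above 0. In total 8 of 10 genes were lower at an adjusted p under 0.05, where 15.4% of all tested features were lower and 26.6% passed in either direction. The median log2 change of the 10 genes was -0.63, and that of all features was -0.0034. Because the genes were chosen with earlier results known, the shares given here are a description and not a test. Of the 8, Cideb, Plin3 and Plin5 lay close to the threshold and passed in only 8, 5 and 7 of 17 processing alternatives. Cidea, Cidec, Plin2, Plin4 and Fitm1 passed under all 17 alternatives, some of which repeat each other. For these 5 genes every Fra-1hep level lay below every control level, which held for 9.17% of all features. The control levels are readings of the same pool on each array, not of single mice. No member had all its Fra-1hep levels above the control levels, which held for 5.46% of all features. The log2 ratio was below 0 on all 5 arrays for 7 of the 10 genes, against 19.5% of all features; the exceptions were Plin3, Fitm2 and G0s2. Of the 12 member probes 9 passed, against 25% of all kept probes. The arrays measured bulk liver, in which fewer cells of a type and less RNA per cell cannot be told apart.

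A lipid droplet is a core of triglyceride and cholesteryl ester under a single layer of phospholipid, and proteins on that layer decide how the fat is stored and released. Perilipins coat the surface and limit the access of lipases, CIDE proteins sit at the contacts between droplets and pass lipid from the smaller to the larger one, and FITM proteins of the endoplasmic reticulum take part in packing newly made fat into droplets. In fatty liver several of these genes, Cidea, Cidec and Plin4 among them, are known to rise, and many are targets of PPAR gamma or PPAR alpha. The comparison asks what extra Fra-1 in hepatocytes does to this set during high-fat feeding.

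Over the 5 arrays, 47.2% to 54.7% of spots were well above background in Cy5 and 47.7% to 61.5% in Cy3, by the scanner software's flag, and 0 spots were saturated. Log2 ratios correlated across features with r of 0.74 to 0.84 between mice and 0.59 to 0.61 between a mouse and the swapped pool; arrays that share a control pool correlate even without a genotype effect. Fosl1, which encodes Fra-1, had 1 probe, whose Fra-1hep signal stayed near background on all 5 arrays, so it did not check the labels; whether it covers the overexpressed transcript is not known here. All 10 hepatocyte markers, such as albumin, were well above background, with summed intensities of 891000 to 1240000 in the Fra-1hep channels and 690000 to 1060000 in the control channels. Ahsg, Serpina1a and F2 passed as higher and Tat as lower. Tat passed narrowly (limma adjusted p = 0.0488), at -0.75, -0.66, -0.13 and 0.22 in mice 1 to 4 and -0.83 on the swapped array. Serpina1a lay at 0.62 to 0.93 in single mice but at -0.22 on the swapped array. F2 was split in the same way, at 0.35 to 0.52 and -0.03. Serpina1a, Alb, Cyp2e1, Ahsg, Ttr and Apob had a dye effect past the threshold, as in Ttr, at 0.79 to 0.94 in single mice and -0.58 on the swapped array, so these sums move with the dye as well as with the genotype. Mouse 1 was alone on its slide, and the other 4 arrays, the swapped one included, shared a second slide. Probes that stand on the array in at least 10 spots gave the error of a single spot: the median standard deviation (SD) of the log2 ratio within an array was 0.064 above a mean log2 intensity of 12 (38 probes), 0.069 from 9 to 12 (106 probes) and 0.10 below 9 (141 probes). Each member's probe stood in 1 spot.

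Cidea, known as a droplet fusion protein of brown fat that fatty livers also make, showed the widest gap. Its normalised log2 intensity was 7.75, 7.61, 7.81 and 7.79 in Fra-1hep mice 1 to 4 and 7.19 in the Fra-1hep pool, against 13.03, 13.01, 13.05, 12.98 and 12.88 in the control pool on the same arrays. The Fra-1hep channel was dim on every array but still well above background on all 5, so the change is measured and not a bound. The raw signal over local background was 64 to 290 units in the Fra-1hep channels and 5932 to 8820 units in the control channels. Mice 1 to 4 had log2 ratios of Fra-1hep over control of -5.29, -5.40, -5.24 and -5.19, and the swapped pool had -5.68. In the fit Cidea fell by 5.48 on the log2 scale (SE 0.06, 95% interval -5.62 to -5.34, limma adjusted p = 9.89e-08). The 4 mice differed little, with an SD of 0.087, below the median of 0.12 over all features. That SD was read after an offset of 50 was added before taking logs, which narrows the spread of a dim channel. With no offset the SE of the change was 0.074. In the fit as reported, only 1 of the 21521 features had a lower log2 change. In the authors' deposited table the ratios were larger, between -5.96 and -5.68 for the mice and at -6.85 for the swapped pool; with no offset added before taking logs the change was -6.03, since the offset of 50 used here pulls the ratio of a dim channel toward 0.

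Cidec, also called Fsp27, is the CIDE protein that fills the droplets of white fat and of steatotic hepatocytes. It had 2 probes. The brighter probe read 11.20, 11.41, 11.66 and 11.49 in Fra-1hep mice 1 to 4 and 11.56 in the Fra-1hep pool, against 12.08, 12.17, 12.16, 12.26 and 12.16 in the control pool. No Fra-1hep level reached a control level. Cidec fell by 0.66 on the log2 scale (SE 0.08, 95% interval -0.85 to -0.48, limma adjusted p = 0.0016), and the dimmer probe gave a change of -0.42 (SE 0.05, adjusted p = 0.0022 over all kept probes).

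Cideb, the CIDE protein of normal hepatocytes, which also takes part in loading fat onto very-low-density lipoprotein, differed between its 2 probes. The brighter one gave mice 1 to 4 log2 ratios of -0.39, -0.19, -0.08 and -0.18, and the swapped pool -0.29. That probe passed narrowly, with a change of -0.25 (SE 0.07, limma adjusted p = 0.036). At the other the mice lay between -0.01 and 0.16 and the swapped pool at -0.02, with a change of 0.02 (SE 0.06, adjusted p = 0.80 over all kept probes). Both probes were well above background in both channels of all 5 arrays. With the mean of both probes Cideb did not pass (-0.11, adjusted p = 0.20). At the brighter probe it also did not pass without mouse 2 (adjusted p = 0.0539) or without mouse 4 (adjusted p = 0.0688), and did with each of the other 3 arrays left out. The 3 CIDE genes thus had point estimates of -5.48, -0.66 and -0.25. The difference between Cidec and Cideb was not tested, and at its dimmer probe Cidec, at -0.42, lay nearer to Cideb.

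The RefSeq promoter windows (250 bases before to 50 after a start, build GRCm38.p6) of 2 CIDE genes are shown because each holds the heptamer TGANTCA, the DNA element that AP-1 dimers are known to bind; both are on the minus strand of the genome and are written 5′ to 3′ along the gene, with matches to any of the searched motifs in capitals. The window of Cidec lies at chr6:113434715-113435014 and that of Cideb at chr14:55758375-55758674.
Cidec: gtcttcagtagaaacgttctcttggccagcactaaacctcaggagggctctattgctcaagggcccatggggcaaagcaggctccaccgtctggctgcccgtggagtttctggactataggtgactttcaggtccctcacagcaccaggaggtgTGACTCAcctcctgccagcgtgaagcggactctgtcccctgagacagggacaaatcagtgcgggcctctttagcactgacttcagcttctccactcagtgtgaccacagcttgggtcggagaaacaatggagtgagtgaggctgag
Cideb: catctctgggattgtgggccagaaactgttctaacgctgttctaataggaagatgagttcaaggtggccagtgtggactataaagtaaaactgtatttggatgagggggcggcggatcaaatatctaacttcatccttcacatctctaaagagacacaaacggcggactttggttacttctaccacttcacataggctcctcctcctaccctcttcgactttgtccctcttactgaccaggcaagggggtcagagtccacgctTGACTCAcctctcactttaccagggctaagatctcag
Cidec holds TGACTCA from base -96 to base -90 relative to the start, and Cideb holds TGACTCA from base 14 to base 20. A second Cidec window, from another start, holds none of the motifs.

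**Figure D1:**
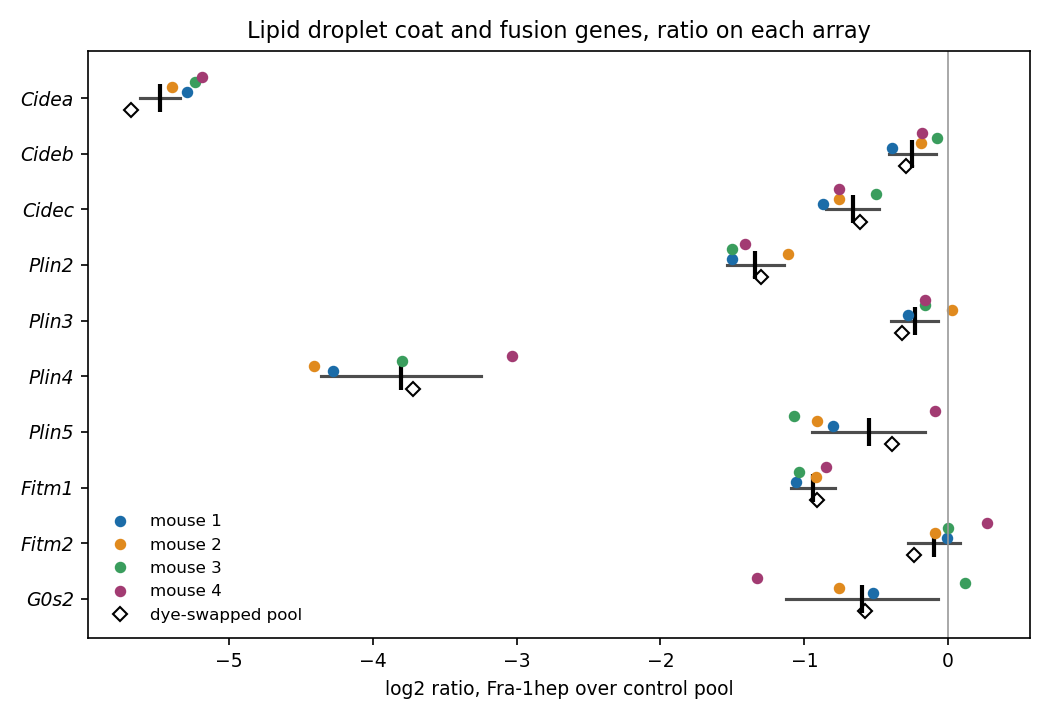
Log2 ratio of Fra-1hep over the control pool (x axis) for the 10 genes, brightest probe each. Filled circles are the 4 mice, open diamonds the dye-swapped pool with its sign turned, and the tick with its bar is the fitted change with its 95% interval. Cidea at -5.48 and Plin4 at -3.80 stand apart from the other 8 genes, which lie between -1.34 and -0.10.

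Plin4, also called S3-12, coats small droplets that adipocytes form when fat is first stored. Its level was 7.93, 7.92, 8.46 and 9.32 in Fra-1hep mice 1 to 4 and 8.49 in the Fra-1hep pool, against 12.21, 12.33, 12.26, 12.34 and 12.22 in the control pool. Mouse 4 kept the most Plin4, yet its level was still far below every control level. Mice 1 to 4 had log2 ratios of -4.28, -4.41, -3.80 and -3.03, and the swapped pool had -3.72. Plin4 fell by 3.80 (SE 0.24, 95% interval -4.36 to -3.25, limma adjusted p = 0.000117) and held place 5 from the lowest of 21521 features. Its SD over the mice was 0.63, beside a median of 0.12 over all features.

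Plin2, or adipophilin, is the main coat protein of hepatocyte droplets, and its protein is stabilised by the fat it covers. The level was 13.66, 13.93, 13.53 and 13.66 in Fra-1hep mice 1 to 4 and 13.87 in the Fra-1hep pool, against 15.16, 15.04, 15.03, 15.06 and 15.17 in the control pool. No Fra-1hep level reached a reading of the control pool. Plin2 fell by 1.34 (SE 0.08, 95% interval -1.54 to -1.14, limma adjusted p = 0.000128). Single mice lay between -1.50 and -1.11, and the swapped pool lay at -1.30. Macrophages that take up fat also make Plin2. Of 10 markers of lipid-associated macrophages 6 fell and 1 rose, where 15.4% of all features were lower and 11.2% higher. Gpnmb and Trem2 were among the falls. The Fra-1hep signal of Gpnmb was well above background on only 1 of 5 arrays. Fabp5 rose narrowly (limma adjusted p = 0.048) and lay at -0.40 in mouse 1. The summed intensity of the 10 markers was 27300 to 36100 in the Fra-1hep channels and 35700 to 39100 in the control channels. Of 5 resident Kupffer cell markers, Cd5l fell and 4 did not pass, with sums of 14100 to 37000 in the Fra-1hep channels and 32300 to 40800 in the control channels. The part of these cells in the Plin2 result was not tested.

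Plin5, the perilipin of tissues that burn fat, which ties droplets to mitochondria, varied between mice. Its level was 11.90, 11.74, 11.48 and 12.52 in Fra-1hep mice 1 to 4 and 11.97 in the Fra-1hep pool, against 12.70, 12.65, 12.55, 12.61 and 12.36 in the control pool. Mouse 4, at a ratio of -0.09, lay inside the range of the control pool's readings. The other 3 mice, at -0.80, -0.91 and -1.07, lay below that range. Plin5 passed narrowly at -0.55 (SE 0.17, 95% interval -0.95 to -0.16, limma adjusted p = 0.048). Without mouse 1 the adjusted p was 0.079, without mouse 2 0.070 and without mouse 3 0.078, and in these 3 fits Plin5 did not pass. Without mouse 4 it passed at -0.66 (adjusted p = 0.0043), and without the swapped array at -0.71 (adjusted p = 0.0103).

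Plin3, or TIP47, is a perilipin found in most cells that moves from the cytosol to new droplets. Mice 1 to 4 had log2 ratios of -0.28, 0.03, -0.16 and -0.16, and the swapped pool had -0.32. The Fra-1hep levels overlapped the readings of the control pool. Plin3 passed at -0.23 (SE 0.07, limma adjusted p = 0.046) but did not pass without mouse 1 (adjusted p = 0.061), mouse 3 (0.092), mouse 4 (0.091) or the swapped array (-0.14, adjusted p = 0.12).

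Plin4 and Plin5 are direct neighbours among the protein-coding genes of chromosome 17 in the RefSeq table, and both are read from the minus strand. Their promoter windows, at chr17:56109733-56110032 and chr17:56117499-56117798 (build GRCm38.p6, minus strand), are shown as the pair of adjacent genes with unequal changes, again with motif matches in capitals.
Plin4: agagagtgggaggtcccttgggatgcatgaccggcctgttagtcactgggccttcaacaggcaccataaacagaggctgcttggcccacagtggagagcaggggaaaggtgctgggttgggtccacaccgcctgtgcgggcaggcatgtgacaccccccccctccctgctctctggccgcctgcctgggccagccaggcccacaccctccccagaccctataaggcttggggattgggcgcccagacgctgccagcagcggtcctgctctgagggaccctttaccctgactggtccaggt
Plin5: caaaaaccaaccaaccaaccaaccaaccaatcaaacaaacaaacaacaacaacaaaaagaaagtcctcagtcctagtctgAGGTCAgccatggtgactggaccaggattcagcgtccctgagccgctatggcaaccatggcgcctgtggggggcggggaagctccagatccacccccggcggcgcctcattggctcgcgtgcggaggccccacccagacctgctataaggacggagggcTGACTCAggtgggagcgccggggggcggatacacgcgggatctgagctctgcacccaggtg
In Plin5, TGACTCA lies from base -11 to base -5 relative to the start, and AGGTCA, the single element that nuclear receptors such as the PPARs are known to bind in pairs, from base -170 to base -165. The Plin4 window holds none of the 4 motifs. The Plin5 window not printed, from another start, holds AGGTCA from base 14 to base 19 and no TGANTCA.

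Of the 10 genes, 9 had a window and 2 of these had 2, which made 11 windows; Cidea is named only. On either strand, TGANTCA was found in 3 of the 11 windows (Cideb, Cidec and Plin5) and in 7.81% of 32851 windows of the same length. AGGTCA was found in 3 of 11 (Plin2 and both Plin5 windows) and in 16.3% of all windows. TGACGTCA, a second AP-1 element, and the DR1 direct repeat of the nuclear receptor element, with any base at the fourth place of each copy, were in 0 of 11, where 1.79% and 0.381% of all windows held them. AGGTCA lies inside some matches of the direct repeat. A match is only a run of letters, and binding was not measured here.

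**Figure D2:**
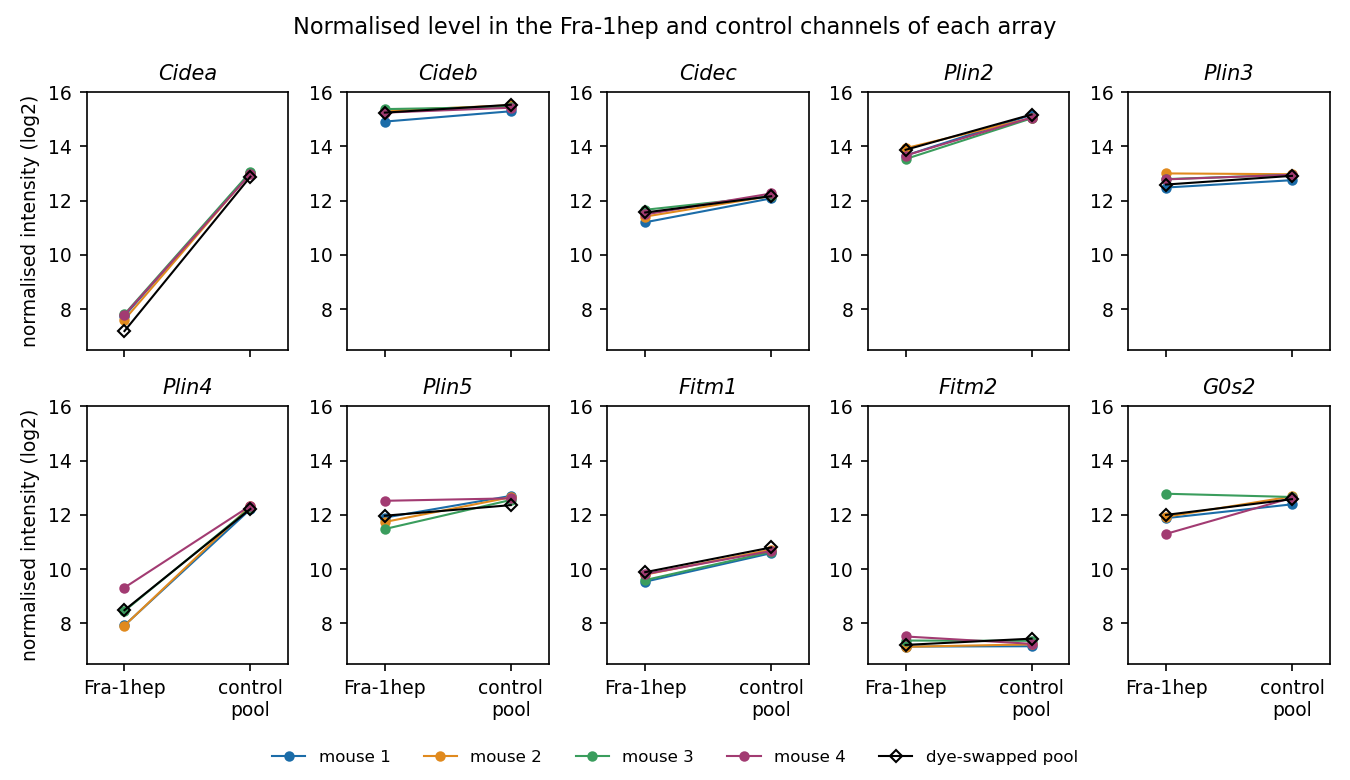
Normalised log2 intensity in the Fra-1hep channel (left) and the control channel (right) of each array, 1 panel per gene and 1 line per array. All Fra-1hep levels lie below all control levels for Cidea, Cidec, Plin2, Plin4 and Fitm1, and the levels overlap for Cideb, Plin3, Plin5, Fitm2 and G0s2.

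The FITM genes did not move together. Fitm1, which muscle expresses most, read 9.54, 9.80, 9.60 and 9.82 in Fra-1hep mice 1 to 4 and 9.89 in the Fra-1hep pool, against 10.59, 10.72, 10.64, 10.67 and 10.80 in the control pool. It fell by 0.94 (SE 0.06, 95% interval -1.09 to -0.79, limma adjusted p = 0.000152), with every ratio between -1.06 and -0.85. Of 10 skeletal muscle markers, 7 were not well above background in either channel of any array, among them Ckm and Myh4. Of the 2 that could be tested Pvalb rose by 0.32 on the log2 scale and Tnni2 did not pass, and the list's summed intensity was 936 to 1490 in the Fra-1hep channels and 933 to 1240 in the control channels. Fitm2, the form made in most tissues, was dim but well above background on all 5 arrays, at 7.14 to 7.52 in the Fra-1hep channels and 7.16 to 7.44 in the control channels. Mice 1 to 4 had ratios of -0.01, -0.09, 0 and 0.27, and the swapped pool had -0.24. It did not pass at -0.10 (SE 0.08, limma adjusted p = 0.39). Its 95% interval of -0.28 to 0.08 did not reach the change in Fitm1, but leaves out the spread among control mice. The SE of Fitm2 was 0.098 with the control pool's spread added, 0.116 with an offset of 0 and 0.127 with processed signals.

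G0s2 encodes a small protein that binds and inhibits adipose triglyceride lipase, the enzyme that starts fat breakdown on the droplet. It was the most variable member after Plin4. Its level was 11.88, 11.93, 12.78 and 11.30 in Fra-1hep mice 1 to 4 and 12 in the Fra-1hep pool, against 12.39, 12.68, 12.66, 12.63 and 12.58 in the control pool. Mouse 3 lay above all control readings and mouse 4 lay lowest, so that the ratios ran from -1.33 to 0.12. The change of -0.60 (SE 0.225, 95% interval -1.13 to -0.07) did not pass (limma adjusted p = 0.092), and it passed in 4 of 17 alternatives. These were the fits without mouse 3 (-0.72, adjusted p = 0.023), without the swapped array (-0.62, adjusted p = 0.0495), without a dye term (adjusted p = 0.0289) and with median centring (adjusted p = 0.0298).

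**Figure D3:**
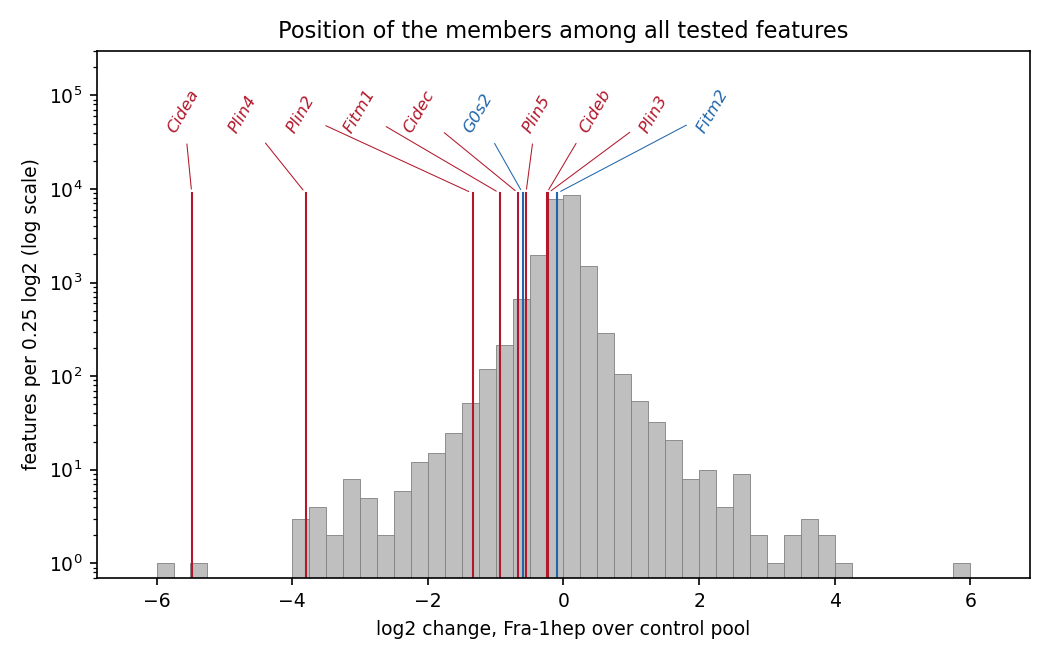
Log2 change of all 21521 tested features (bars, log scale on the y axis) with a line for each of the 10 genes, red where the adjusted p was under 0.05 and blue otherwise. Cidea and Plin4 lie in the far left tail at places 2 and 5 from the lowest, while Plin3, Cideb and Fitm2 lie within the bulk.

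The dye-swapped array bears on each value, since it has as much weight in the fit as the 4 mice together. No member had a dye effect past the threshold in limma, against 4.16% of all features, and 1 of 10 had one at an unadjusted p under 0.05. The largest was that of Cidea at 0.20 (adjusted p = 0.12), small beside its change. Without the swapped array the change of Cidea was -5.28, that of Plin4 -3.88, that of Plin2 -1.38, that of Fitm1 -0.97 and that of Cidec -0.72.

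Pparg, the gene of the nuclear receptor that drives fat storage, fell by 1.82 (SE 0.05, limma adjusted p = 8.38e-06); single mice lay between -1.83 and -1.72, and the swapped pool lay at -1.87. Its probe stood in 10 spots. Ppara, which encodes the receptor that drives fat burning, lay at -0.27 (SE 0.08) and did not pass (limma adjusted p = 0.057). Its ratios by mouse were -0.31, 0.03, 0.12 and -0.04, a mean of -0.05, whereas the dye-swapped array alone read -0.49. Most of that estimate thus came from the swapped array. Of its other 2 kept probes, 1 gave -0.15 and did not pass (mouse mean -0.11, swapped array -0.19). The last probe gave -0.24 and passed (adjusted p = 0.041 over all kept probes), but its mouse mean was -0.09 against -0.39 after the dye swap.

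Cidea, Cidec and Plin4 are also genes of fat cells, so adipocyte markers were read beside them. Adipoq, Lep, Retn, Plin1 and Ucp1, defining genes of white or brown fat, were not well above background in either channel of any array. Of the 5 of 10 markers that could be tested, 4 fell and 1, Lipe, did not pass, beside 15.4% lower of all features. The falls were those of Cfd (adjusted p = 4.99e-05, with a Fra-1hep signal that was well above background on 0 of 5 arrays, so that its level there is only a bound), Adrb3 (-1.63), Fabp4 (-1.04) and Cidec itself. A second, dimmer Adrb3 probe gave -0.56 and passed (limma adjusted p = 0.0063 over all kept probes). The part of fat cells in the Cidea, Cidec and Plin4 results was not tested. The list's summed intensity, Cidec included, was 4620 to 5930 in the Fra-1hep channels and 9620 to 10400 in the control channels.

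Other genes of the droplet machinery moved in both directions. The list held 31 other genes for droplet formation, droplet proteins and lipolysis, of which 30 were on the array and 28 could be tested. Of these, 8 fell, 6 rose and 14 did not pass, with a median log2 change of 0.021. Of all features 15.4% were lower, 11.2% were higher and 26.6% passed in either direction; the list was not tested against them. Plin1, the perilipin of adipocytes, and Cav1 were not well above background in either channel of any array.

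Among the genes that fell, Hsd17b13, a hepatocyte droplet protein, was lower by 0.77 (SE 0.08, limma adjusted p = 0.00082) at its brighter probe. Its second probe gave -0.07 and did not pass. That probe was dim, at mean levels of 6.92 in the Fra-1hep channels and 6.89 in the control channels. The brighter probe read 13.5 and 14.23. Mgll, monoacylglycerol lipase, the last step of fat breakdown, fell by 0.67 (SE 0.06, limma adjusted p = 0.0005), and its other 2 kept probes gave -0.40 and -0.77. Hilpda, a small inhibitor of adipose triglyceride lipase, fell by 0.40 (SE 0.07, limma adjusted p = 0.007) at its brighter probe, and its second probe, at -0.24, did not pass and lay above 0 on the swapped array (0.041). The 3 highest rises were those of Lss, lanosterol synthase (0.89 ± 0.14), Nsdhl, a sterol dehydrogenase found on droplets (0.78 ± 0.12), and Acsl4, an acyl-CoA synthetase (0.77 ± 0.10), each with its SE. The other falls were those of Cavin1 (-0.38), Gpat4 (-0.28), Hsd17b11 (-0.28), Rab8a (-0.25, with a second probe at -0.07 that did not pass) and Ldah (-0.20, with a second probe at -0.50 that lay at 0.028 on average in the mice and -1.03 on the swapped array), and Acsl3 (0.54) and Mettl7b (0.23) also rose. Pnpla2, adipose triglyceride lipase, at 0.19 and Lipe, hormone-sensitive lipase, at 0.06 did not pass. Abhd5, the activator of Pnpla2, did not pass at its brightest probe (0.08), while of its other 2 kept probes 1 gave 0.11 and did not pass and 1 gave 0.22 and passed (adjusted p = 0.03 over all kept probes). Dgat2, the last enzyme of triglyceride synthesis, passed at 0.23, but the mice lay between 0.48 and 0.70 and the swapped pool at -0.11. Hsd17b11 was split in the same way, at -0.91 to -0.54 for the mice and 0.15 for the swapped pool.

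**Figure D4:**
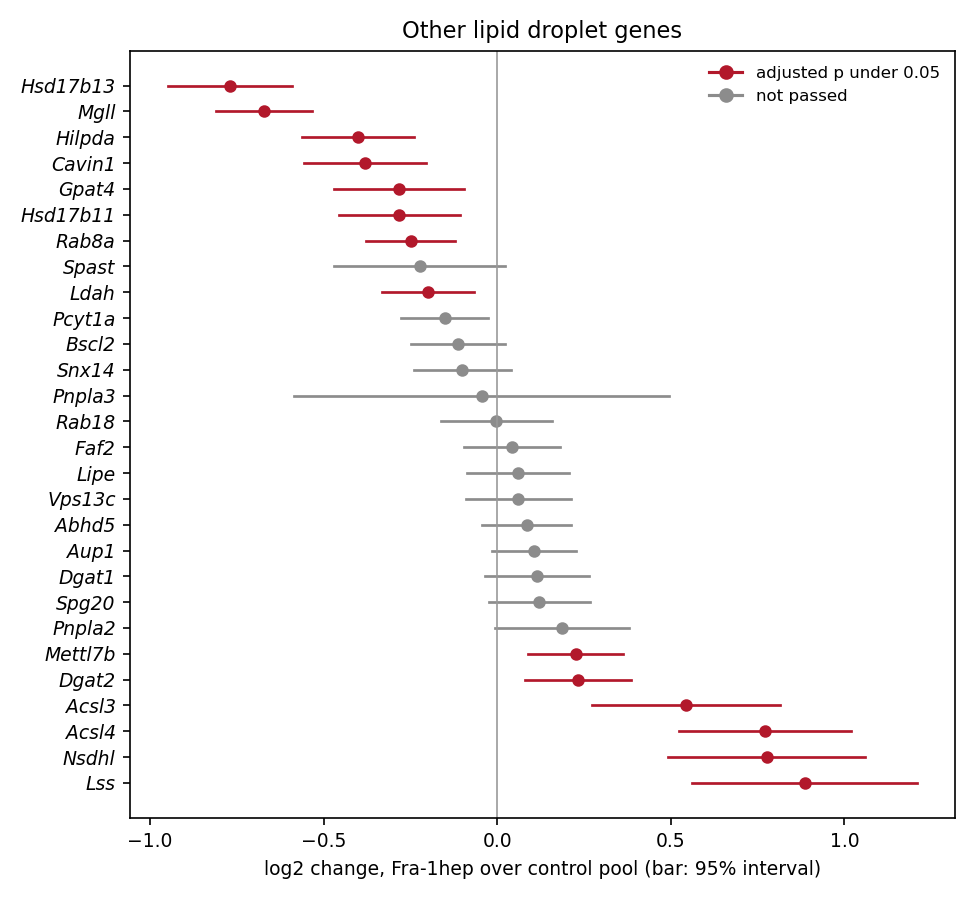
Log2 change with its 95% interval for the 28 tested genes of the other droplet list, red where the adjusted p was under 0.05. The changes run from -0.77 for Hsd17b13 to 0.89 for Lss, with 8 below 0 and 6 above 0 among those that passed.

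The processing moved the weaker members across the threshold and left the stronger ones in place. Across the 17 alternatives Cidea ran from -6.34 to -5.28, Plin4 from -4.15 to -3.71, Plin2 from -1.39 to -1.31, Fitm1 from -0.99 to -0.92 and Cidec from -0.72 to -0.54. Cideb passed in 8 of the 17, Plin5 in 7, Plin3 in 5, G0s2 in 4 and Fitm2 in 0. With standard errors enlarged for the spread that 5 pooled control mice would add, 5 members were lower, and Cideb (adjusted p = 0.11), Plin3 (0.13) and Plin5 (0.14) were not.

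**Figure D5:**
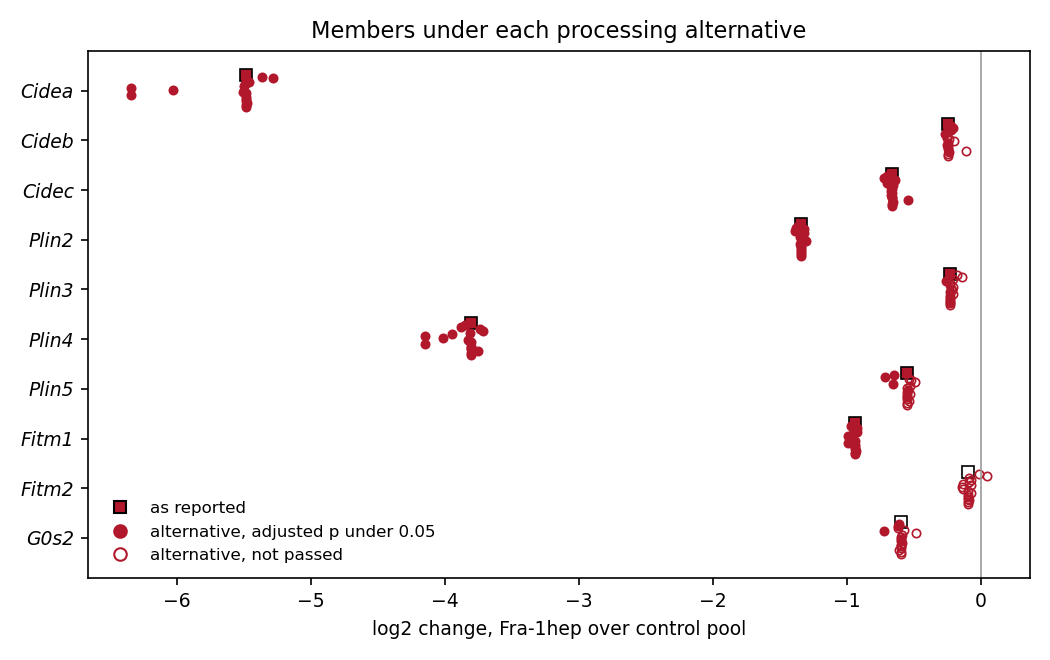
Log2 change of each gene as reported (square) and under 17 processing alternatives (circles), filled where the adjusted p was under 0.05. Cidea, Cidec, Plin2, Plin4 and Fitm1 are filled throughout, and Fitm2 is open throughout.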

How the data were processed

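Liver RNA was measured on 5 Agilent 2-colour arrays. Per the file headers, the deposited scanner files hold median spot intensity and local background, processed intensity with background and dye bias taken off, log10 Cy5 over Cy3 ratios, and 0 or 1 flags, made with Agilent Feature Extraction 10.7.3.1; the submitters' processing notes give 10.7. The deposited series table holds log2 ratios; regressed on the scanner's ratios over 23066 probes, each mouse's column had a slope of 1 and the swapped array's one of -1, so its sign is Fra-1hep over control, and it is not centred (medians of mice 1 to 4: 0.13, 0.084, 0.044 and 0.13; of the swapped array: -0.042).

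Median signals were corrected with normexp (offset 50) and normalized by loess within arrays, with control and non-uniform spots at weight 0. Probes were named by accession through a RefSeq gene table (GRCm38.p6; 26056 of 55681 matched). Spots of a probe were averaged, 28101 probes were kept because 1 channel or the other was well above background on 3 or more arrays, and the brightest stood for its gene. Log ratios were fitted with limma 3.58.1 (R 4.3.3) with genotype and dye terms, 3 residual and 4.02 prior degrees of freedom, with Benjamini-Hochberg adjustment over 21521 features (threshold 0.05). The control pool counts as 1 sample, so tests leave out the spread among control mice, and the number of arrays limits the precision. Channel levels are log2 intensities after loess and Aquantile. The fit was tested on simulated data with independent errors on each array, so the effect of a shared control pool was not simulated. Members and lists were chosen with earlier results of these data known. The genes named are all 10 members, the up to 6 other droplet genes with the smallest p, the PPAR regulators, and the markers at the extremes of each list; other genes named were chosen after their values were seen. Alternatives are given below. A planned comparison of protein sequences was not made here.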

Additional observations from a re-analysis of the deposited data

How the results depend on the processing

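Of the alternatives, 5 gave 5 lower members in place of 8: processed signals without further loess, a normexp offset of 0, the deposited log2 ratios, the control pool's spread added, and a minimum change of 1.2-fold. In each of them Cideb, Plin3 and Plin5 were the ones lost. Under the remaining alternatives 6 to 8 members passed, all of them lower, and leaving out each array in turn gave 6 to 8. The other droplet genes past the threshold numbered 9 with processed signals and with deposited ratios, 7 with the pool's spread and 5 against 1.2-fold, in place of 14; without single arrays they numbered 10 to 19. All features past the threshold numbered 2853 with the pool's spread and 1052 against 1.2-fold, in place of 5733, and 4294 to 7727 without single arrays. Member probes past the threshold numbered 5 against 1.2-fold. Under median centring 7 members had a dye effect, in place of 0, and 67.6% of called features were lower, in place of 58%. Fitm2 changed sign without the swapped array (0.044, adjusted p = 0.65) and passed in neither case; without single mice it lay between -0.13 and -0.074. The causes were not tested. A block for the slide is the same fit as leaving out mouse 1, where Plin3 and Plin5 did not pass, and Aquantile after loess leaves log ratios as they are. No paired analysis was possible because the labels number only the 4 mice of 1 group, each against the same control pool.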

Other observations

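Genes next to the 10 members on the chromosome were read from the RefSeq gene order, after their values were seen. The 10 genes have 18 protein-coding neighbours that are not members themselves, and 15 of them were tested. Of these, 4 were lower and 2 were higher in Fra-1hep livers, beside 15.4% lower and 11.2% higher of all features. The higher ones were Rpusd3 next to Cidec (0.26, limma adjusted p = 0.0208) and Dcaf11 next to Fitm1 (0.17, adjusted p = 0.049). Hsd11b1, next to G0s2, was lower (-0.41, adjusted p = 0.0241). Both neighbours of Cidea were among the lower ones: Impa2, an inositol monophosphatase, had a change of -0.67 (limma adjusted p = 0.0111), and Tubb6, a tubulin gene, one of -1.37 (adjusted p = 0.00013). The neighbours of Plin4 and Plin5 outside the pair were Hdgfl2 at 0.12, which did not pass, and Lrg1, an acute phase gene, at -0.30 (adjusted p = 0.0098).

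In 1 respect the mice themselves differed: mouse 4 had the highest Plin4 level and the highest Plin5 level of the 4 mice and the lowest G0s2 level, and mouse 3 the highest G0s2 level. With 4 mice no relation between these genes was computed. Over the 12 member probes, 0 had a mouse whose ratio stood apart from the other 3 by Dixon's criterion for 4 values.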
